A study of Caenorhabditis elegans with 2 samples.

Results

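The genes *snr-1* to *snr-7* encode the Sm proteins of *Caenorhabditis elegans*, the proteins that form the common core of the spliceosomal small nuclear ribonucleoproteins (snRNPs). They were chosen by name, and all 7 were found among the 46890 annotated nuclear genes. The data are chromatin immunoprecipitation followed by sequencing (ChIP-seq) for SNPC-4, a subunit of the small nuclear RNA activating protein complex (SNAPc). Whole L3 larvae of strain OP179 were used, of pooled male and female sex and unknown age, with the genotype unc-119(ed3) III; wgIs179. The protein was tagged with enhanced green fluorescent protein (eGFP), and there were 2 biological replicates of this 1 group. All animals thus carried the *unc-119* allele and the transgene, whose promoter the labels do not state. Depth is unknown for both libraries, since read counts are not part of the lists. With whole larvae, binding in fewer cells and weaker binding in each cell cannot be told apart.

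SNAPc binds a short element upstream of small nuclear RNA (snRNA) genes and starts their transcription. The Sm proteins act later in the same pathway. They close as a ring around a uridine-rich site of the U1, U2, U4 and U5 snRNAs and, in nematodes, of the spliced leader RNA. Some of the related LSm proteins bind U6. In *C. elegans* the annotated 5′ end of a messenger RNA is often the site where a spliced leader was joined, which lies downstream of the true start of transcription. Whether this holds for the 7 genes was not tested.

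Every Sm gene had a region of SNPC-4 signal upstream of its annotated 5′ end. A region counted for a gene when its summit lay within 500 bp of that end on the ce11 assembly. All 7 genes had one in the list made from the pooled replicates (30000 regions, which hold background as well as peaks), against 34.8% of the 19971 protein-coding genes. Of the 7, 5 had one in the authors' list of 2672 peaks that passed the irreproducible discovery rate (IDR) threshold. The same was true of 8.94% of protein-coding genes. The genes with such a peak were *snr-1*, *snr-2*, *snr-3*, *snr-4* and *snr-6*, while *snr-5* and *snr-7* had regions below the threshold. The peak at *snr-4* lay at the snRNA gene *C52E4.8*. Without *snr-4*, 4 of the other 6 Sm genes had a peak. With 1 group there was no condition to test against, and the counts are descriptions without a test.

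The windows below show the sequence under the summits of 4 Sm genes. Each runs from 100 bp before to 100 bp after the pooled summit, on the strand of the Sm gene, read from the reference genome WBcel235 (RefSeq), the assembly that ce11 names. They lie at chrIV:17087559-17087759 on the plus strand (*snr-1*), chrII:6489871-6490071 on the minus strand (*snr-3*) and chrV:11979964-11980164 on the minus strand (*snr-4*). That of *snr-5* lies at chrIII:7861649-7861849 on the plus strand. They show where the palindrome TTCGAA, in capitals, lies downstream of the summit. The windows of *snr-2*, *snr-6* and *snr-7*, which are not shown, held it there too. In the window of *snr-4* the further capitals mark TGTCGGT on the opposite strand, a word of the *C52E4.8* promoter described with that gene.
snr-1: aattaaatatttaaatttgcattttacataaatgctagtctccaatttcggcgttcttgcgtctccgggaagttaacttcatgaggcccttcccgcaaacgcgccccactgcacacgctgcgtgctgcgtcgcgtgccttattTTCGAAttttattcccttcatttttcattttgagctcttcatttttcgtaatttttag
snr-3: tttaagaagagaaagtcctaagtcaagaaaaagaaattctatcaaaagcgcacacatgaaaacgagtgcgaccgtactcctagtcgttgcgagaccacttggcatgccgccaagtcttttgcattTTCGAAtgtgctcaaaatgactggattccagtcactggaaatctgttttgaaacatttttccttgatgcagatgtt
snr-4: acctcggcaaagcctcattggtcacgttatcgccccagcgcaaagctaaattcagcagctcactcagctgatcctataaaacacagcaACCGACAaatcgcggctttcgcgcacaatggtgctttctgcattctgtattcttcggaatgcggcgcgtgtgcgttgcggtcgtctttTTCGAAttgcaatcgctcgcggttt
snr-5: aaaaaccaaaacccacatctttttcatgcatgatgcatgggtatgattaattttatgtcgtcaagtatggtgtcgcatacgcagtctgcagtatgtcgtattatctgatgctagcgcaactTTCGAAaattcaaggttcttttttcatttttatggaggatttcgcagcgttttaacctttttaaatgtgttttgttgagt

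The ring is known to be built from the pair D3 and B, the pair D1 and D2, and the trio E, F and G, and the genes are described in that order. They are short, from 369 bp (*snr-7*) to 1216 bp (*snr-4*). *snr-1* (Y116A8C.42; IV, 17088049 to 17088946, plus strand) encodes Sm D3. Its strongest region ranked 1727 in replicate 1, with a signal of 22.8, and 1458 in replicate 2, with a signal of 22.4. Signal has no physical unit and its scale differs between lists, so a value can be read only beside other regions of the same list. In the pooled list the region (IV, 17087514 to 17087803) ranked 1516 with a signal of 43.8. Both replicates placed *snr-1* among their 2672 strongest regions.

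*snr-2* (W08E3.1; I, 13339397 to 13340224, plus strand) encodes Sm B. Its region ranked 1490 in replicate 1 (signal 25.3) and 1779 in replicate 2 (signal 19.8). In the pooled list it ranked 1358 with a signal of 46.8 (I, 13338885 to 13339174). The ranks of *snr-1* and *snr-2* in the replicates overlapped, so their order in the pooled list is not separated by the spread between replicates.

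*snr-3* (T28D9.10; II, 6488830 to 6489761, minus strand) encodes Sm D1. Its pooled region was the strongest among the Sm genes after that of *snr-4*. The region ranked 1785 in replicate 1 (signal 22.4) and 709 in replicate 2 (signal 33.7), a 2.52-fold difference in rank. In the pooled list it ranked 963 with a signal of 57.1 (II, 6489826 to 6490115). A second, shorter transcript of *snr-3* starts 309 bp inside the gene, farther from the summit.

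*snr-4* (C52E4.3; V, 11978508 to 11979723, minus strand) encodes Sm D2 and stood apart from the other 6. The region within 500 bp of its 5′ end (V, 11979884 to 11980215) ranked 11 in replicate 1, with a signal of 732, and 13 in replicate 2, with a signal of 603. In the pooled list it ranked 11 with a signal of 1324. Its summit lay 54 bp upstream of *C52E4.8*, an snRNA gene on the opposite strand (V, 11980118 to 11980261). The summits of snRNA genes with a thresholded peak lay at a median of -54 bp from their 5′ ends. From the 5′ end of *snr-4* itself the summit was 341 bp away. *C52E4.14*, a noncoding RNA gene between them, has its 5′ end 105 bp from the summit.

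The summit window at *C52E4.8* held the word TGTCGGT, which began 48 bp upstream of the snRNA gene on its own strand. Of 45 snRNA and spliced leader genes with a thresholded summit 30 to 80 bp upstream, 10 had the word between 80 and 21 bp upstream (22.2%). On either strand it was in 2.46% of the 2646 nuclear thresholded windows of 201 bp and in 1.51% of 29974 nuclear pooled windows. Among the other Sm genes only the window of *snr-2* held it, 93 bp downstream of the summit. The word was picked after the *snr-4* window had been read, so it describes these sequences and nothing more. A second pooled region within 500 bp of *snr-4*, inside the gene at 453 bp, was far weaker (rank 12014, signal 10.1). Regions near that place ranked 21569 in replicate 1 and 24984 in replicate 2. Replicate 2 alone had a further region at -736 bp (rank 3336, signal 12.4).

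The genes of the trio E, F and G had the 3 weakest pooled regions. This order did not hold in replicate 1, where *snr-6* ranked 1728 and *snr-3* of the pair D1 and D2 ranked 1785. *snr-6* (Y49E10.15; III, 12429172 to 12429629, minus strand) encodes Sm E. Its region ranked 1728 in replicate 1 (signal 22.8), 2348 in replicate 2 (signal 16.2) and 1857 in the pooled list (signal 38.3). It was the weakest Sm region inside the threshold, which ended at rank 2672 with a signal of 29.1.

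*snr-5* (ZK652.1; III, 7862070 to 7862574, plus strand) encodes Sm F and had the widest gap in rank between replicates, 10.5-fold. Its region ranked 27934 in replicate 1, with a signal of 4.19, near the end of that list, and 2653 in replicate 2, with a signal of 14.8. The summits of these regions were 87 bp apart, the widest gap among the Sm genes. In the pooled list the region ranked 5451 with a signal of 16.6 (III, 7861604 to 7861893). Its −log10 q-value was 0.229 in replicate 1, 3.25 in replicate 2 and 2.27 in the pooled list. A region of similar rank (5917, signal 15.7) had its summit at -766 bp, outside the 500-bp limit, between *snr-5* and *cuc-1*. In replicate 1 that upstream region was the stronger of the pair, at rank 7781.

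*snr-7* (Y71F9B.4; I, 2727014 to 2727382, plus strand) encodes Sm G and had the region nearest to the threshold from below. That region ranked 2864 in replicate 1 (signal 16.5) and 8905 in replicate 2 (signal 6.17). In the pooled list it ranked 3450 with a signal of 23.7 (I, 2726614 to 2726903). Its deposited −log10 q-value in the pooled list, 3.88, was the same as in each of the 2672 thresholded peaks. *snr-7* had a thresholded peak farther off (I, 2727532 to 2727821; rank 2024, signal 35.8), with the summit 663 bp downstream of its 5′ end. This summit lay 295 bp past the gene's end in the RefSeq annotation and 132 bp past it in the Ensembl annotation. The nearest 5′ end of another gene was 953 bp away, that of *Y71F9B.6*. The downstream region ranked 1499 in replicate 1 and 4845 in replicate 2.

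Across the members the median pooled rank was 1516, against 8637.5 at the 6942 protein-coding genes with a pooled region. Without *snr-4* it was 1686.5. Both replicates had a region among their 2672 strongest at 5 of 7 Sm genes, against 6.40% of protein-coding genes. Replicate 1 had one at 5 genes (background 8.61%) and replicate 2 at 6 (background 8.83%), with *snr-5* as the gene added in replicate 2. The pooled order was *snr-4*, *snr-3*, *snr-2*, *snr-1*, *snr-6*, *snr-7* and *snr-5*. The replicate ranks of *snr-3* overlapped with those of *snr-1*, *snr-2* and *snr-6*. Those of *snr-2* and *snr-6* overlapped as well, as did those of *snr-7* and *snr-5*. The ranks of *snr-4* overlapped with none.

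**Figure D1:**
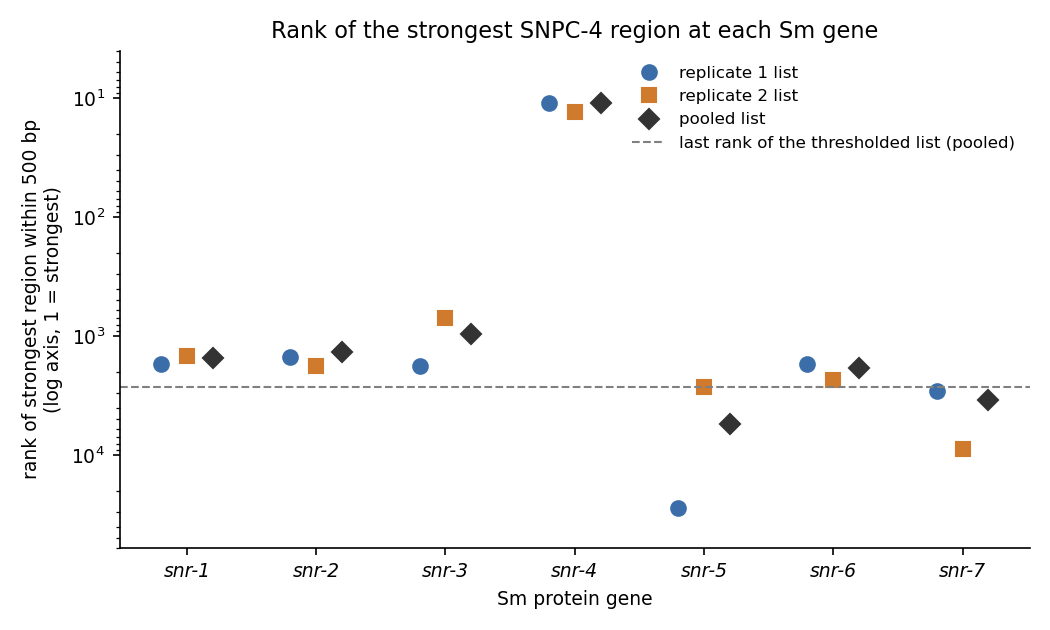
Rank of the strongest region within 500 bp of the 5′ end of each Sm gene (log axis, strongest at the top) in the lists of replicate 1 (circles), replicate 2 (squares) and the pooled replicates (diamonds). The dashed line is rank 2672, the last of the thresholded list. The points of *snr-4* lie at ranks 11 to 13, those of *snr-1*, *snr-2*, *snr-3* and *snr-6* between 709 and 2348, and those of *snr-5* spread from 2653 to 27934.

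The regions all lay upstream of the Sm gene, at a similar distance. The pooled summit was at -210 bp (*snr-3*), -248 bp (*snr-6*), -255 bp (*snr-7*), -321 bp (*snr-5*), -341 bp (*snr-4*), -367 bp (*snr-2*) and -390 bp (*snr-1*), where negative is upstream. Against the 7 of 7 upstream here stood 76.0% of strongest pooled summits at protein-coding genes. The share was 97.0% at ribosomal protein genes (64 of 66) and 84.8% at the genes of other spliceosome proteins listed below (28 of 33). All 7 genes also had a region within 500 bp in replicate 1 (35.6% of protein-coding genes) and in replicate 2 (36.8%), with the strongest summit upstream in both. Their summits lay 2 bp apart at *snr-4*, 10 bp at *snr-7*, 11 bp at *snr-3*, 18 bp at *snr-6*, 28 bp at *snr-2* and 34 bp at *snr-1*.

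The thresholded summits lay in a narrow stretch. All 5 thresholded Sm summits lay 200 to 400 bp upstream, against 38.9% of the 1785 protein-coding genes with a thresholded peak. The limits of 200 and 400 bp were not planned and enclose all 7 pooled Sm summits, so the Sm count describes that choice. The median position was -341 bp over these 5 Sm genes and -184 bp over those protein-coding genes. The value of -341 bp is that of *snr-4*, whose summit lies at *C52E4.8*. The other 4 were at -210, -248, -367 and -390 bp. Ribosomal protein genes, whose products build the ribosome, gave similar values here. Of 59 with a thresholded peak, 45 had the summit 200 to 400 bp upstream (76.3%), with a median of -291 bp.

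**Figure D2:**
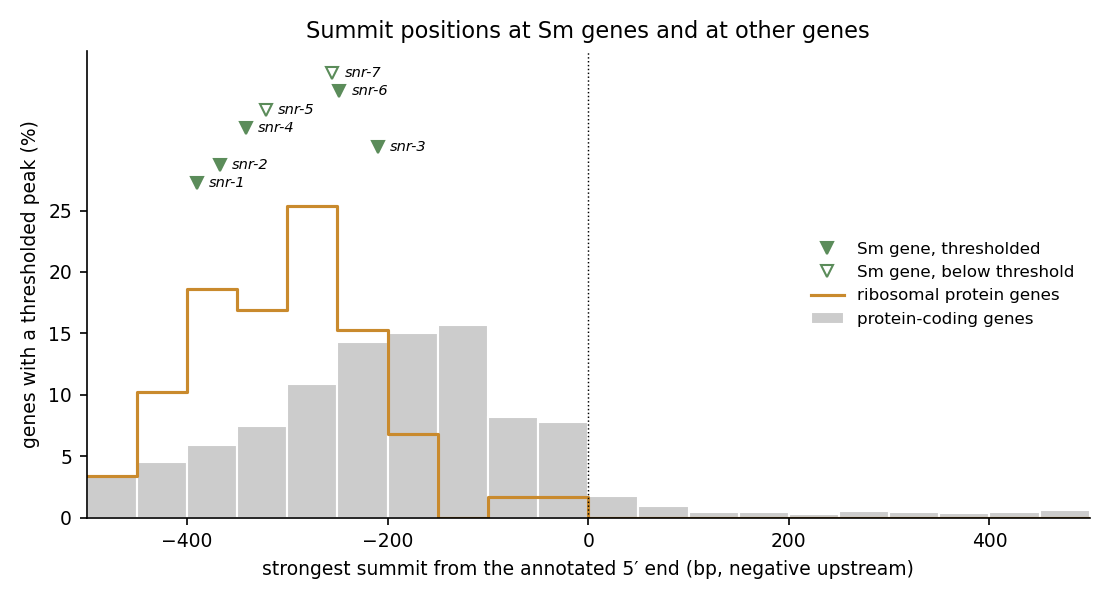
Position of the strongest summit relative to the annotated 5′ end (bp, negative upstream). Triangles mark the pooled summits of the 7 Sm genes (filled where thresholded, open where below the threshold; their height has no meaning), all between -390 and -210 bp. Grey bars and the orange line give the share of protein-coding and of ribosomal protein genes with a thresholded peak, in bins of 50 bp.

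Most Sm summits lay nearer to another gene's 5′ end. The pooled summit was nearest to the gene's own 5′ end at 2 of 7 Sm genes, *snr-5* and *snr-6*, against 80.6% of protein-coding genes with a pooled region. Among the 5 with a thresholded peak this was so at *snr-6* alone, against 67.1% of protein-coding genes with such a peak. Ribosomal protein genes were also below these shares. Their summit was nearest to the own 5′ end at 32 of 66 with a pooled region (48.5%) and 28 of 59 with a thresholded peak (47.5%). At *snr-1* the summit was 390 bp from the 5′ end of *snr-1* and 221 bp from that of *snx-13*, a sorting nexin gene on the opposite strand. At *snr-2* it was 367 bp from *snr-2* and 99 bp from *W08E3.4* on the opposite strand. At *snr-7* it was 255 bp from *snr-7* and 35 bp from *Y71F9B.6* on the opposite strand.

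At *snr-3* the summit lay close to the middle between 2 genes of splicing. It was 210 bp from the 5′ end of *snr-3* and 194 bp from that of *rsp-5*, which encodes an SR protein (a splicing factor rich in serine and arginine). The 5′ ends of this head-to-head pair are 404 bp apart. A summit between such genes counts for both, and the lists do not assign it to either.

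**Figure D3:**
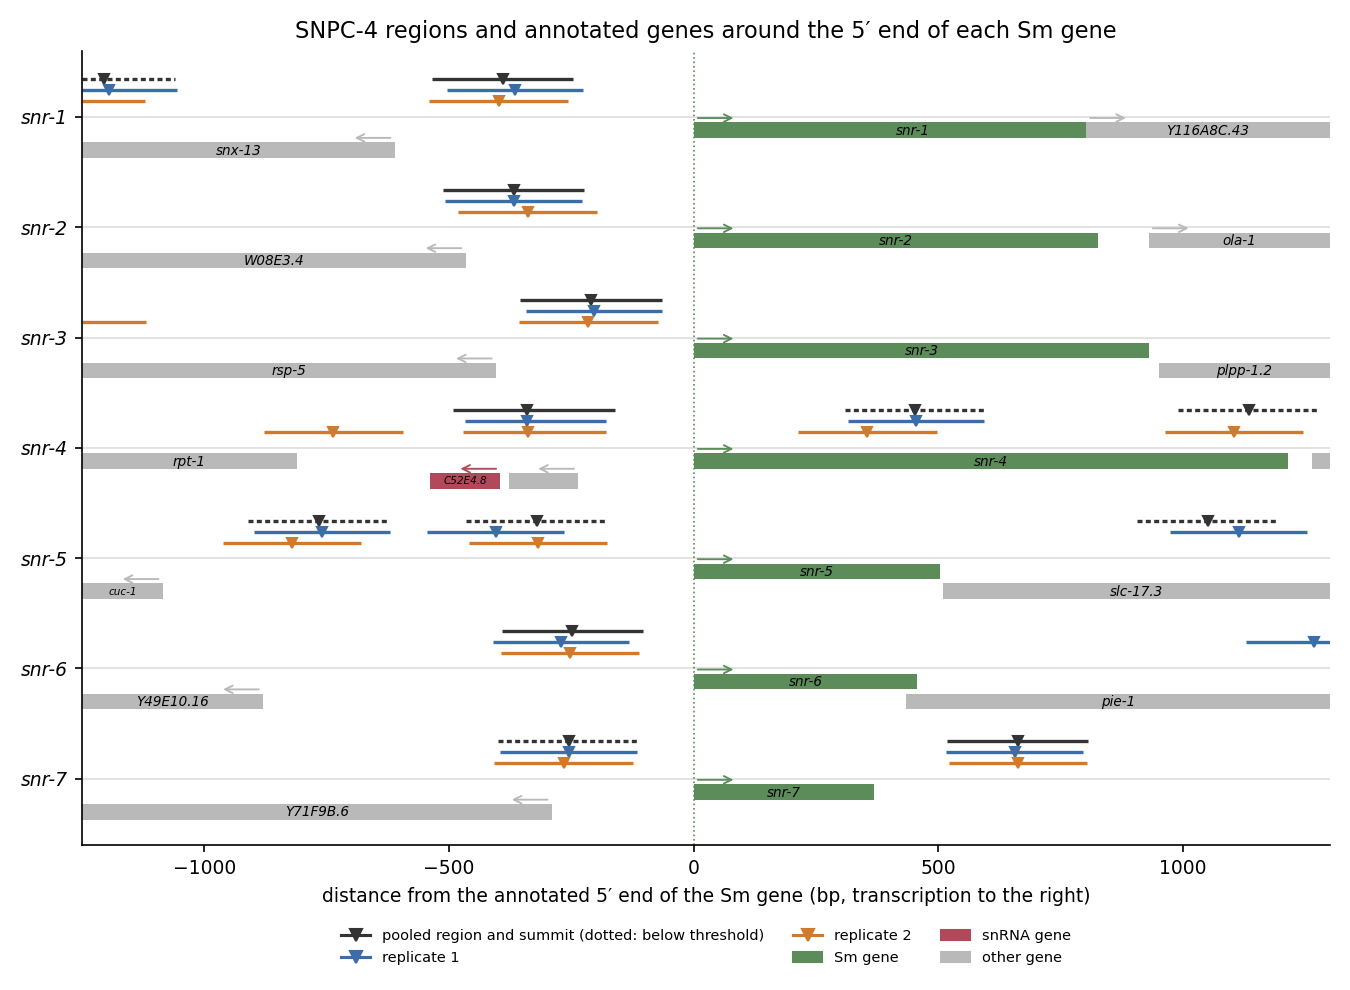
Regions and genes around the 5′ end of each Sm gene (0 on the axis, bp, transcription to the right). Lines with triangles are the pooled, replicate 1 and replicate 2 regions with their summits, dotted where a pooled region was below the threshold. Bars are annotated genes other than piRNA genes, with arrows at their 5′ ends. The region upstream of *snr-4* sits at the snRNA gene *C52E4.8*. Those of *snr-1*, *snr-2*, *snr-3*, *snr-6* and *snr-7* lie between head-to-head genes with 5′ ends no more than 880 bp apart.

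Of the 7 Sm genes, 5 had the 5′ end of a protein-coding gene on the opposite strand within 1000 bp upstream. These were *snr-7* (290 bp, *Y71F9B.6*), *snr-3* (404 bp, *rsp-5*), *snr-2* (466 bp, *W08E3.4*), *snr-1* (611 bp, *snx-13*) and *snr-6* (880 bp, *Y49E10.16*). A thresholded peak was present at 4 of these 5, against 25.9% of the 3498 protein-coding genes in such an arrangement. Of the other 2 Sm genes, *snr-4* had its peak at *C52E4.8* and *snr-5* had none, against 5.34% of 16473 protein-coding genes without such a neighbour. For *snr-5* the nearest such neighbour, *cuc-1*, was 1085 bp away. This split was chosen after the data were seen.

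On their downstream side 3 Sm genes have a close neighbour on the same strand. The gap to *mif-2* after *snr-4* is 48 bp and that to *ola-1* after *snr-2* is 102 bp, and *Y116A8C.43* overlaps the end of *snr-1* by 96 bp. Closely spaced genes of *C. elegans* on 1 strand are often read together as an operon. No thresholded summit lay within 500 bp of the 5′ end of *mif-2*, *ola-1* or *Y116A8C.43*. The nearest protein-coding gene upstream on the same strand ended 811 bp before *snr-4* (*rpt-1*), 1911 bp before *snr-5* (*tomm-7*) and 2047 bp before *snr-3* (*T28D9.11*). It was at least 5884 bp away at the other 4 (*gcy-35* at *snr-2*, *lin-17* at *snr-7* and *Y49E10.18* at *snr-6*), and 21758 bp at *snr-1*.

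The palindrome TTCGAA was present under all 7 summits. The word reads the same on both strands, and windows of 201 bp around the pooled summit were searched. Its first base lay downstream of the summit, on the side of the Sm gene, at every member. The distance was 15 and 22 bp at *snr-7*, which has 2 copies, 21 bp at *snr-5*, 25 bp at *snr-3* and 36 bp at *snr-6*. It was 43 bp at *snr-1*, 49 bp at *snr-2* and 76 bp at *snr-4*. The copies began from 185 bp (*snr-3*) to 347 bp (*snr-1*) upstream of the annotated 5′ ends.

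Other windows of the same length held the word at lower shares. It was in 14.1% of the strongest pooled windows of 6942 protein-coding genes and in 17.7% of the 1785 among them with a thresholded peak. Of 66 ribosomal protein windows 8 held it (12.1%). It was in 12.4% of the nuclear thresholded windows and in 12.4% of the nuclear pooled windows. Windows were also placed 200 to 400 bp upstream of the 5′ end, limits that enclose all 7 pooled Sm summits. There 6 of 7 Sm genes held the word, against 12.1% of all protein-coding genes. The word was picked after the Sm windows had been read, so their counts describe that choice. The downstream part of the window held it at all 7 Sm genes and the upstream part at 0, against 7.78% and 6.63% of protein-coding windows.

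Other spliceosome genes held the palindrome often as well. Of 33 genes with a pooled region in the lists of other spliceosome proteins, 17 had it in the window (51.5%). The downstream part held it at 15 of them and the upstream part at 3. A match is a description of the letters and not a binding site. Whether SNPC-4 touches these letters was not tested.

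**Figure D4:**
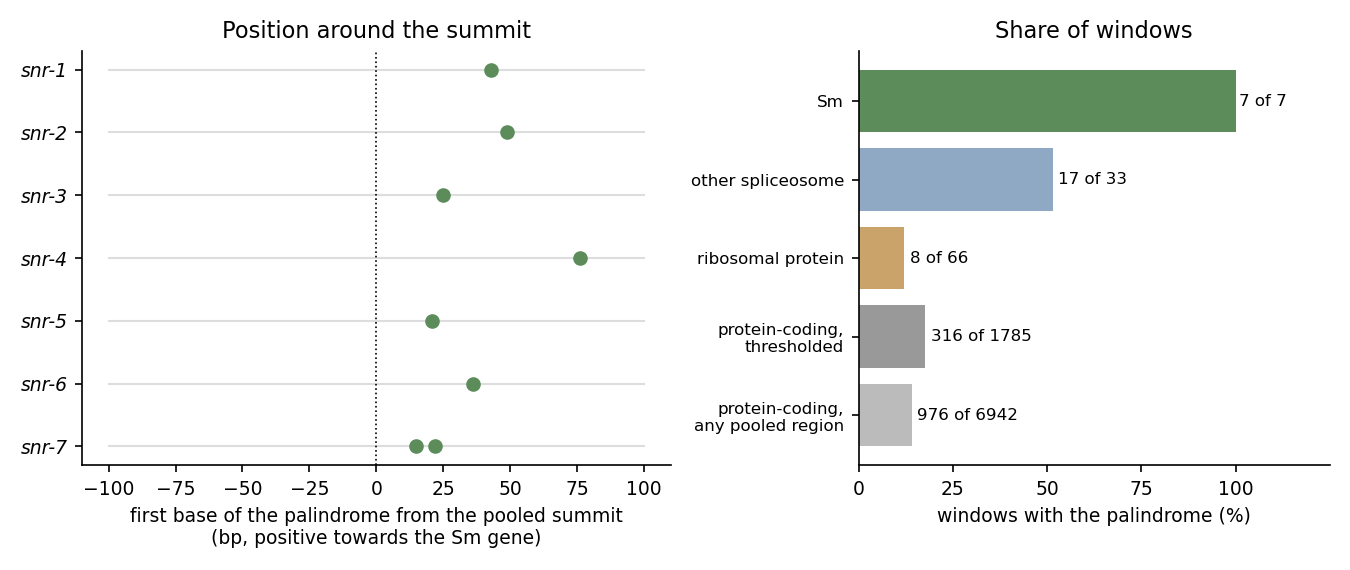
Left, position of the 6-base palindrome in the 201-bp windows of the 7 Sm genes, as the distance of its first base from the pooled summit (bp, positive towards the Sm gene). All 8 copies lie 15 to 76 bp on the side of the Sm gene. Right, share of windows with the palindrome, with counts, at the Sm genes, other spliceosome genes, ribosomal protein genes, and protein-coding genes with a thresholded peak or with any pooled region.

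The words AGACGCAG and AGACGC were searched with earlier results of these data known, and fewer members held them. AGACGCAG was in 0 of 7 Sm windows on either strand. It was in 6.97% of the strongest pooled windows of protein-coding genes and in 11.9% of the thresholded ones. Its first 6 bases, AGACGC, were in 3 Sm windows (*snr-1*, *snr-2* and *snr-7*), each on the strand opposite to the gene. They were in 10.9% and 18.2% of those protein-coding windows. Over all nuclear thresholded windows, which also lie at other kinds of gene, the shares were 15.5% (AGACGCAG) and 22.2% (AGACGC). The Sm windows had a median of 40.8% G and C (35.3 to 51.7%). It was 40.3% in the thresholded and 36.3% in the strongest pooled windows of protein-coding genes. The highest value was that of *snr-4*, whose window is shared with *C52E4.8*.

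The genes of other spliceosome proteins had a peak at a lower share. Of 61 names listed, 55 were matched in the annotation. Of these 55 genes, 17 had a thresholded peak (30.9%), against 5 of 7 Sm genes and 8.94% of protein-coding genes, with no test made between them. One of the 17, *snpn-1*, was listed by its name but encodes a homologue of snapin, a protein of vesicle traffic. Without it 16 of 54 genes had a peak. *pqn-59* and *sut-2*, neither with a peak, are also not clear members of their lists. Both were kept in all counts, and *snpn-1* in all but this one.

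The LSm genes encode the nearest relatives of the Sm proteins, and 3 of 8 had a peak. The peak of *gut-2* (LSM2; rank 546, signal 76.5) lay at -96 bp. Those of *lsm-7* (rank 563) and *lsm-1* (rank 1105) lay nearer to the 5′ ends of *dnc-1* and of the ribosomal protein gene *rps-9*. In the list for Sm assembly 2 of 8 had one. These were *imb-1*, an importin (rank 191, signal 135), with the summit nearest to *mfsd-13.1*, and *snpn-1*. *smn-1*, whose product takes part in loading the Sm ring on snRNAs, had none.

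The lists were set by name and do not sort the genes strictly by particle. In the list for U1 and U2 snRNP proteins, which also holds *uaf-1* and *uaf-2* of U2AF, 5 of 13 had a peak. *sftb-1*, *sftb-2*, *sftb-6* and *teg-4* encode parts of the SF3b complex, with ranks of 495, 2560, 1935 and 2573. *rnp-2*, which encodes a U1 snRNP protein, ranked 654. Among U4/U6 and U5 snRNP proteins 3 of 14 had a peak: *snrp-40.1* (rank 278), *usp-39* (443) and *prp-31* (1450). Of 12 genes listed as other splicing factors, *plrg-1* (254), *isy-1* (327), *mog-4* (1099) and *prp-21* (2330) had one. The summit lay nearest to the gene's own 5′ end at 1 of 5 Sm genes and at 12 of these 17 genes.

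**Figure D5:**
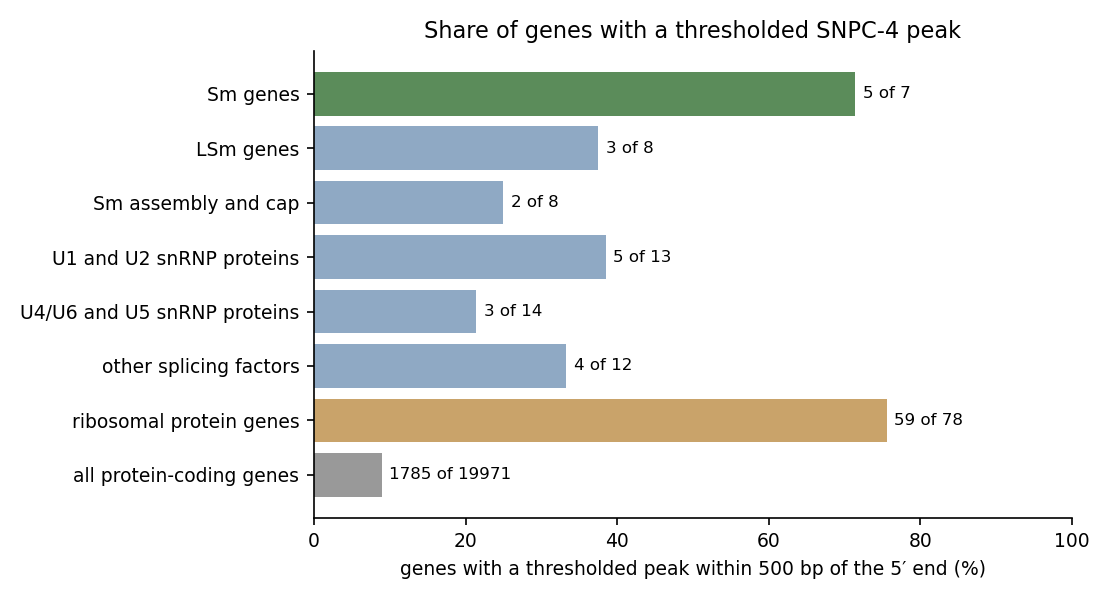
Share of genes with a thresholded peak within 500 bp of the 5′ end, with counts beside the bars. The Sm genes (5 of 7) and ribosomal protein genes (59 of 78) have the longest bars, the other spliceosome lists lie between 21.4% and 38.5%, and all protein-coding genes are at 8.94%.

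Ribosomal protein genes were the closest in share, with 59 of 78 (75.6%). The median pooled rank was 1516 at the Sm genes and 561.5 at ribosomal protein genes with a pooled region. The snRNA genes, the direct targets of SNAPc, had a peak at 33 of 99 (33.3%). Their thresholded summits had a median rank of 265, and none of these lay 200 to 400 bp upstream.

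The protein-coding gene most like each Sm gene was the one with the smallest summed difference in log10 rank over the 2 replicate lists, out of 4446 genes with a region in both. These were *immp-1* for *snr-1*, *ZK1290.5* for *snr-2*, *F16B12.6* for *snr-3*, *Y41D4A.4* for *snr-6*, *sna-1* for *snr-7* and *spp-2* for *snr-5*. The differences were between 0.00981 (*sna-1*) and 0.0490 (*spp-2*). For *snr-4* it was *tim-1*, with a difference of 0.775. The region counted for *tim-1* (pooled rank 4) lay 54 bp from the 5′ end of the spliced leader gene *sls-2.8*, as that of *snr-4* lay 54 bp from *C52E4.8*.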

How the data were processed

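SNPC-4 was mapped by ChIP-seq in whole L3 larvae. Lists on ce11 were used: 2672 peaks that passed IDR, and 30000 regions from the pooled replicates and from either replicate alone. A control alignment is among the inputs of the lists, per the file headers. Neither the caller, the aligner, the IDR threshold nor the read depth is given in the sources used here, so precision is seen only in how the replicates differ. Lists on ce10 were not analysed. Signal values, which the authors deposited without a unit, served to rank regions inside a list. The −log10 q-values were taken from the deposited lists and described only.

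With Python 3.11.15, pandas 2.3.3 and numpy 2.4.6, summits were set against gene 5′ ends of RefSeq's WBcel235 annotation, and the strongest region within 500 bp of each 5′ end was kept. This step was tested on simulated data. The 2672 thresholded peaks had the positions of the 2672 strongest pooled regions. Shares of protein-coding genes are given as background, and no test was made.

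Members and lists were chosen with earlier results of these data known. Genes were named if they were members, had a 5′ end within 500 bp of a member's summit, lay next upstream on the same strand, were listed spliceosome genes with a peak, or were the protein-coding gene most like a member. Others, among them *smn-1*, *cuc-1*, *Y49E10.16* and the genes just downstream, were named after their values were seen. Alternatives changed the window, the threshold, the summit rule, the 5′ end and the replicates. The window sequences of *snr-2*, *snr-6* and *snr-7* are not reported here.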

Additional observations from a re-analysis of the deposited data

How the results depend on the processing

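The count of 5 Sm genes with a thresholded peak rested on the window and the threshold. With 250 bp it was 2 of 7 (1163 of 19971 protein-coding genes), pooled regions were found at 2, the median pooled rank was 1410, 1 summit was nearest to its own gene, and 1 gene was among the strongest of both replicates. In the stronger 50% of the thresholded list the count was also 2, with 11 other spliceosome genes and 1048 protein-coding genes. Among the strongest 1000 regions of both replicates 1 Sm gene had a region. No share of protein-coding genes is at hand for this count. The same holds for the pooled and both-replicate counts at 250 bp, so these drops cannot be set against a background. Leaving out a replicate meant taking the strongest 2672 regions of the other replicate's list, without a new IDR call. Without replicate 1 this gave 6 Sm genes with a region, against 1763 of 19971 protein-coding genes, and a median rank of 1779. Without replicate 2 it gave 5 Sm genes, against 1719 protein-coding genes, and a median rank of 1728. Leaving out *snr-4*, chosen after the data were seen, gave 4 with a thresholded peak and a median pooled rank of 1686.5. With 1000 bp the strongest summit of *snr-7* was that at 663 bp, downstream in place of upstream. Of 60 single ranks and positions, 46 moved by no more than 1 SD of the replicate values, 13 by more, and 1 changed sign. This tally is no measure of precision. Leaving out a replicate gave the values of the other one, and the SD came from those same values. All Sm genes but *snr-3* have 1 annotated transcript, so taking the 5′ end of any transcript could not move them. The 1000-bp window kept the same strongest region at all but *snr-7*. With 250 bp only *snr-3* and *snr-6* had values.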

Other observations

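By list, the palindrome TTCGAA was in the summit windows of 2 of 7 LSm genes with a pooled region (*lsm-4* and *lsm-7*), 7 of 10 genes for U1 and U2 snRNP proteins and 3 of 7 for U4/U6 and U5 snRNP proteins. It was in 3 of 5 windows of other splicing factors (*mog-4*, *isy-1* and *plrg-1*) and 2 of 4 of the Sm assembly list (*imb-1* and *snpn-1*). Those of the list for U1 and U2 snRNP proteins were *rnp-7* (U1-70K), *repo-1*, *sftb-1*, *sftb-2*, *sftb-6*, *teg-4* and *uaf-2* (a U2AF subunit). The copies of *mog-4*, *isy-1* and *plrg-1* began 37, 52 and 52 bp downstream of the summit, within the range at the Sm genes. Those of *lsm-4*, *imb-1*, *prp-31* and *dib-1* began 86, 81, 94 and 83 bp downstream, beyond that range. The remaining downstream copies began 18 bp (*sftb-2*) to 66 bp (*teg-4*) from the summit. Those of *snpn-1* and *sftb-6* and a second copy of *dib-1* began 41, 22 and 96 bp upstream. The protein-coding share was 14.1%. No test was made, and the genes were named after their values were seen.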
